A study of Homo sapiens with 6 samples.

Results

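The AP-1, EGR1 and immediate-early genes are 10 genes of the deposited count table, taken by their listed symbols: the FOS family genes FOS, FOSB, FOSL1 and FOSL2, the JUN family genes JUN, JUNB and JUND, the zinc-finger factor gene EGR1, and the immediate early response genes IER2 and IER3. All 10 were found among the 21151 listed genes, each under a single entry, and all 10 passed the filter on low counts that left 16353 genes for testing. They were measured by RNA sequencing of CCD-1064Sk cells, a line of human dermal fibroblasts from skin. The label of the first group, shZNF469 (3 libraries), names a short-hairpin RNA, a construct that the cell cuts into small interfering RNA, aimed at ZNF469, which encodes a zinc-finger protein; the label of the other, shControl (3 libraries), names a control hairpin. The genotype is labelled ZNF469 knockdown for shZNF469 and WT for shControl. The sources used here do not give how many hairpins there were or their sequences. The study asked how ZNF469 bears on the production of extracellular matrix. The labels call the 3 libraries of a group technical replicates, so the p-values below measure only the spread between these libraries.

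AP-1 is a dimeric transcription factor. Its subunits hold a basic region, which contacts DNA, and a leucine zipper, through which a JUN protein pairs with another JUN protein or with a FOS protein; FOS proteins need a JUN partner. FOS, FOSB, JUN, JUNB, EGR1, IER2 and IER3 are known as immediate-early genes, whose transcription starts within minutes of serum, growth factor or stress signals and needs no new protein, and whose products are mostly short-lived. In fibroblasts the ERK kinase pathway and serum response factor are known inputs, FOSL1 is known to stay high under sustained ERK signalling, and AP-1 and EGR1 are known regulators of matrix proteases, cytokines and collagen genes.

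The promoters of EGR1, FOS, FOSL2 and JUN show the kinds of element through which this class of gene is known to be induced, and are given as RefSeq has them on GRCh38.p14, the build also named in the submitters' processing notes. Each window runs from 250 bases before to 50 bases after the annotated start. The EGR1 window is chr5:138465229-138465528 on the plus strand, that of FOS chr14:75278578-75278877 on the plus strand, that of FOSL2 chr2:28392608-28392907 on the plus strand and that of JUN chr1:58783998-58784297 on the minus strand. Capitals mark, in EGR1, CArG boxes (the site known to be bound by serum response factor) and the half-site TGACG or its reverse complement of the cyclic AMP response element; in FOS, that half-site; in FOSL2, the AP-1 site TGANTCA; and in JUN, TGACATCA, the AP-1-like site known from the JUN promoter, and the site known to be bound by MEF2 factors.
EGR1: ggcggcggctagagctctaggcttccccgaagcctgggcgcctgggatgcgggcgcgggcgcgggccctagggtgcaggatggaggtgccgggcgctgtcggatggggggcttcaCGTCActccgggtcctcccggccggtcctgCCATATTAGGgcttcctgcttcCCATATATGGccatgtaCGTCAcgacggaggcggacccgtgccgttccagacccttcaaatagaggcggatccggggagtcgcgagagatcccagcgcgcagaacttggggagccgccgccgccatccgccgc
FOS: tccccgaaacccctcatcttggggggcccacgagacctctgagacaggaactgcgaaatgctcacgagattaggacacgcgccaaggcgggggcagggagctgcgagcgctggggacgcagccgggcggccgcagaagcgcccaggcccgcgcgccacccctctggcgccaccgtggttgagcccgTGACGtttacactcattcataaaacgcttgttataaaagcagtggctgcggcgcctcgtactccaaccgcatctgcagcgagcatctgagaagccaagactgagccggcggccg
FOSL2: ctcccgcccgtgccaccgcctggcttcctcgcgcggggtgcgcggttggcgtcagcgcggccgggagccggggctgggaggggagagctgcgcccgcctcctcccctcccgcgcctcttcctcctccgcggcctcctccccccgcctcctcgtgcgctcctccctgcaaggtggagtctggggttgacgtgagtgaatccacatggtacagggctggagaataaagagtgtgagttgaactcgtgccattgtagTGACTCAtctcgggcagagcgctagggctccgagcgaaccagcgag
JUN: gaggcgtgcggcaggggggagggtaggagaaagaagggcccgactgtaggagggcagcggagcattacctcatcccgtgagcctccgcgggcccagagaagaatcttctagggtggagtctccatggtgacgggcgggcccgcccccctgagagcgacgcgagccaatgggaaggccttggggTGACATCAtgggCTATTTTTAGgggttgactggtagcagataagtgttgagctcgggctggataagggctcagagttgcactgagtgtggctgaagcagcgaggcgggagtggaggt

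Of the 10 genes, 8 had a promoter in the sequence table (FOS, FOSB, FOSL2, JUN, JUNB, JUND, EGR1 and IER2). Both strands were searched. The half-site TGACG was in 8 of the 8, against 24.6% of 35116 promoters of the same length. A CArG box was in 1 of the 8, EGR1, which held 2 of them at -105 to -96 and at -83 to -74 from the start, against 1.29% of all promoters. The AP-1 site TGANTCA was in FOSL2 alone, at 5 to 11 bases into the transcript, against 7.71% of all promoters. GCGNGGGCG, a loosened form of the site known to be bound by EGR1, was in EGR1 alone, as GCGCGGGCG, against 9.43%. TGACATCA and the MEF2 site were in JUN alone, against 2.61% and 2.99%, and the complete element TGACGTCA, which contains the half-site on each strand, was in JUND alone, against 1.85%. These matches describe letters in a window and were not measured as binding here. Sequence outside the windows was not searched, so a gene without a match here may hold the element elsewhere.

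Total counts were 41318439 to 48298264 in the shZNF469 libraries and 35417366 to 46911355 in the shControl libraries. ZNF469 checked the labels: it was at 19.4 ± 1.77 CPM in shZNF469 and 42.0 ± 3.70 CPM in shControl (SD, n = 3 each) and was called lower (log2 fold change -1.12, edgeR adjusted p = 0.000873). CPM here are read counts scaled to a common library size with TMM factors. In edgeR's quasi-likelihood test 745 of all genes were higher and 874 lower at a Benjamini-Hochberg adjusted p under 0.05. That is 9.9% in all, 4.56% higher and 5.34% lower. Among the 9493 genes with a mean of 10 CPM or more, 13.5% were called. Leaving out shZNF469 replicate 1 or 3 gave 204 or 496 higher and 388 or 625 lower; leaving out shControl replicate 1, 2 or 3 gave 215, 332 or 267 higher and 333, 397 or 405 lower. Higher genes were 46% of the calls, and 29.6% of the 142 higher and 338 lower calls of limma on log2(TPM + 1). A principal component analysis of the log2 values put the shZNF469 libraries at 36.7 to 42.2 on its first axis. It put shControl replicates 1, 2 and 3 at -55.8, -10.2 and -52.0, so replicate 2 lay nearest to the shZNF469 libraries there. By counts, shControl replicates 1 and 2 were the closest pair of libraries (chi-square per degree of freedom 8.70). In log2 CPM, shControl replicate 2 correlated with shZNF469 replicates 1, 2 and 3 at 0.9585, 0.9598 and 0.9505. With shControl replicates 1 and 3 it correlated at 0.9568 and 0.9552. It listed 3305 genes at 0, against 4384 and 4136 in shControl replicates 1 and 3 and 3051 to 3870 in the shZNF469 libraries. Of the 8 fibroblast markers 8 were tested, with 1 higher and 2 lower. Their summed TPM was 23358 to 24665 in shZNF469 and 29821 to 32008 in shControl. The 2 lower were the collagen genes COL1A1 (mean TPM 2434 in shZNF469 and 8286 in shControl) and COL1A2 (4844 and 8959). VIM was higher (11983 and 9751), and the other 5 were not called. Of the keratinocyte, melanocyte, endothelial and immune markers 1 of 7, 2 of 6, 3 of 6 and 3 of 6 were listed. Their summed TPM was 18.5 to 18.8, 51.3 to 62.6, 0.550 to 1.35, and 204 to 245 in shZNF469 and 24.4 to 28.3, 38.0 to 42.4, 0.904 to 1.66 and 173 to 195 in shControl. KRT10, PMEL with MITF, and CD68 carried these sums, while KRT5, KRT14, TYR, MLANA, PECAM1 and PTPRC are not among the listed genes. The part of these markers in the results below was not tested.

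Among the 10 genes the 3 that fell were EGR1, FOSL1 and IER3, and among the JUN family genes none passed the test. EGR1 was 2.32-fold lower, FOSL1 1.54-fold lower and IER3 1.42-fold lower in shZNF469. In bulk RNA, fewer cells with a transcript and less transcript per cell cannot be told apart. FOSB was listed in the shZNF469 libraries only, near the lowest values the table holds. FOS, FOSL2, JUN, JUNB, JUND and IER2 did not pass. The counts of 3 lower and 1 higher of 10 stand beside the 5.34% lower and 4.56% higher of all genes tested. Without FOSB, whose call the filter fixes (below), 3 of 9 were lower and 0 higher, and the median of their log2 fold changes was -0.15, beside 0.0039 over all genes tested. Of these 9, FOSL2 alone was higher at an unadjusted edgeR p under 0.05, and FOSL2 alone was called higher by DESeq2. Without FOSB, whose lack of overlap the filter fixes as well, the groups did not overlap in CPM in 5 of the 9 genes, beside 31.4% of all genes. Log2 fold changes are given as shZNF469 over shControl.

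**Figure D1:**
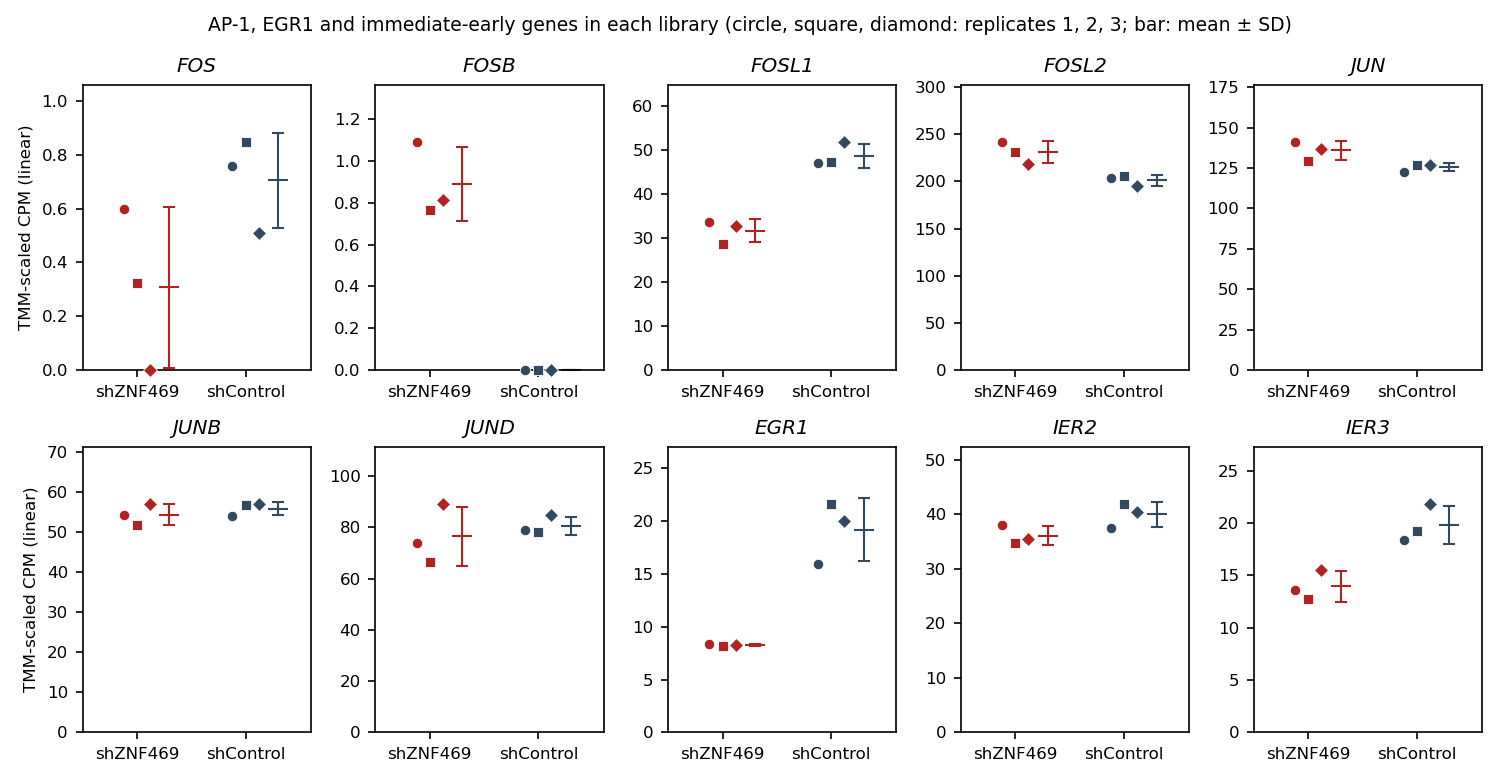
CPM of each of the 10 genes in the 3 shZNF469 and 3 shControl libraries, on linear axes that start at 0 and differ between panels; symbols stand for replicates and bars for mean ± SD. EGR1, FOSL1 and IER3 lie lower in every shZNF469 library than in any shControl library, and FOSB is listed at 0 in all 3 controls.

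The levels of these genes relative to each other were compared in TPM, a transcript abundance scaled by length that the authors computed. In shControl the order of mean TPM was JUND (97.4 ± 0.745), JUN (89.9 ± 3.36), JUNB (71.3 ± 2.53), FOSL1 (71.2 ± 0.893), FOSL2 (70.1 ± 5.12), IER3 (36.5 ± 1.47), IER2 (20.2 ± 2.33), EGR1 (14.2 ± 2.11) and FOS (0.851 ± 0.102), with FOSB listed at 0 (SD, n = 3). JUNB, FOSL1 and FOSL2 overlapped there, whereas JUND lay above JUN in every control library. In shZNF469 the order was JUN (96.0 ± 4.57), JUND (90.9 ± 8.05), FOSL2 (79.5 ± 7.79), JUNB (68.3 ± 0.930), FOSL1 (46.2 ± 2.84), IER3 (25.5 ± 0.947), IER2 (18.3 ± 0.688) and EGR1 (6.08 ± 0.352), with FOSB (0.541 ± 0.109) and FOS at the bottom. There JUN and JUND overlapped, and FOSL1 stood below FOSL2 and JUNB in each library.

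**Figure D2:**
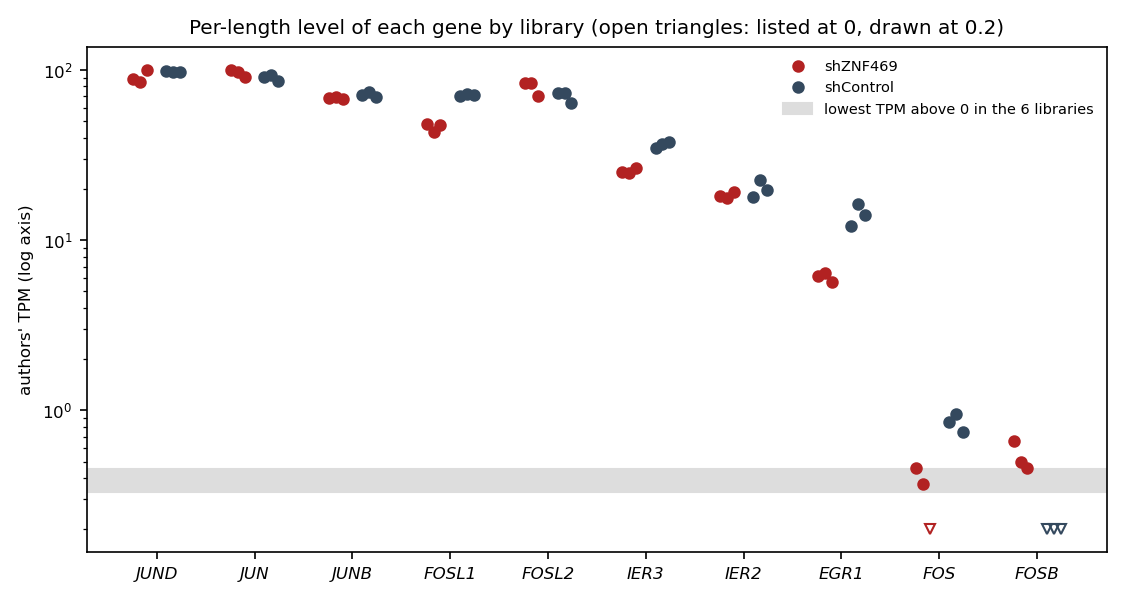
The authors' TPM of the 10 genes in each library on a log axis, ordered by their shControl mean, shZNF469 left of shControl; open triangles are values listed at 0, and the grey band spans the lowest TPM above 0 of the 6 libraries (0.333 to 0.456). The JUN genes, FOSL1 and FOSL2 lie highest, and FOS and FOSB lie at or near the band.

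FOSL1 encodes a FOS family subunit that lacks the strong activation domain of FOS and is known to be expressed in activated and migrating fibroblasts. The gene (ENSG00000175592, chromosome 11, 65892049 to 65900545, GRCh38.p14) had 1570, 1426 and 1328 counts in shZNF469 and 1676, 2224 and 1942 in shControl. Scaled to CPM, it was at 33.6, 28.8 and 32.7 in shZNF469 and at 47.0, 47.2 and 51.9 in shControl. All 3 shZNF469 libraries lay below the lowest control. FOSL1 fell to 65.1% of the control level (log2 fold change -0.62, SE 0.08, edgeR adjusted p = 0.00395), and the authors' TPM gave 48.2, 42.9 and 47.4 in shZNF469 and 70.2, 71.8 and 71.7 in shControl. With any single library left out the adjusted p was 0.00674 to 0.0244.

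FOSL2, the other FOS-related antigen gene, went the other way without passing. It was at 242, 231 and 219 CPM in shZNF469 and at 203, 206 and 195 CPM in shControl, so the groups did not overlap, but the difference was small (log2 fold change 0.20, SE 0.06, edgeR adjusted p = 0.0715). DESeq2 called it (adjusted p = 0.00197), and over the 12 alternative settings the adjusted p ran from 0.00197 to 0.464. In TPM the groups overlapped, with 83.6, 84.4 and 70.5 in shZNF469 and 72.8, 73.2 and 64.2 in shControl. FOSL2 (chromosome 2, 28392858 to 28417317) is overlapped on the opposite strand by the antisense gene FLJ31356, which was at 1.57 to 2.72 CPM in shZNF469 and at 1.15 to 1.78 CPM in shControl.

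Between them FOSL1 and FOSL2 made up nearly all FOS family TPM, and their balance differed between the groups. The TPM ratio of FOSL1 to FOSL2 was 0.577, 0.509 and 0.672 in shZNF469 and 0.963, 0.980 and 1.12 in shControl. Every shZNF469 library had more FOSL2 than FOSL1 TPM, while the controls lay near parity. The ratio averaged 0.586 ± 0.0820 in shZNF469 and 1.02 ± 0.0844 in shControl (SD, n = 3 each; exact two-sided permutation p = 0.1, the smallest that 3 against 3 can give). FOSL1 accounted for 36.6 ± 3.28% of FOS family TPM in shZNF469 and 50.1 ± 2.03% in shControl. FOSL2 accounted for 62.8 ± 3.13% in shZNF469 and 49.3 ± 1.99% in shControl. Summed FOS family TPM was 126 ± 7.44 in shZNF469 and 142 ± 4.89 in shControl, and its ratio to summed JUN family TPM was 0.518, 0.511 and 0.458 in shZNF469 and 0.554, 0.553 and 0.541 in shControl (exact two-sided permutation p = 0.1, again the smallest possible). The TPM sum of the 7 AP-1 genes was 389, 379 and 377 in shZNF469 and 404, 410 and 389 in shControl, which overlapped (exact two-sided permutation p = 0.2). The TPM ratio of JUN to JUND was 1.13, 1.15 and 0.910 in shZNF469 and 0.922, 0.958 and 0.888 in shControl, which overlapped too (exact two-sided permutation p = 0.3). With the FOSL1 to FOSL2 ratio also taken in counts, 5 such quantities were compared, and the Benjamini-Hochberg adjusted values of these exact p were 0.167 to 0.3.

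**Figure D3:**
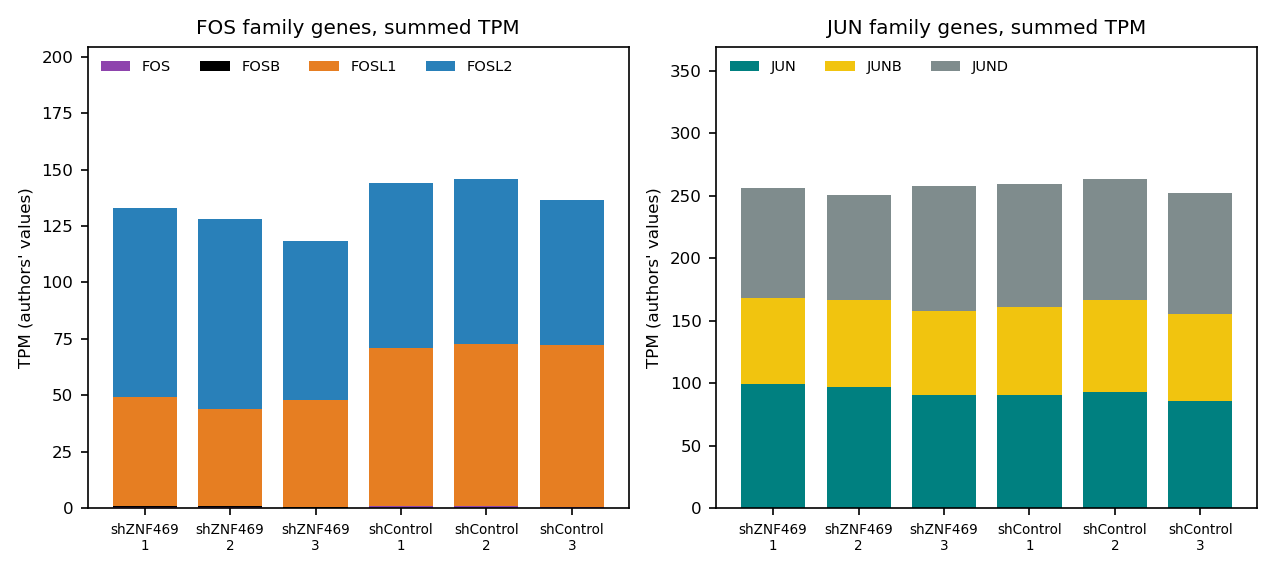
Stacked TPM of the FOS family genes (left) and JUN family genes (right) in each library, shZNF469 replicates 1 to 3 left of shControl replicates 1 to 3, axes from 0. The FOSL1 layer is thinner in the shZNF469 bars (42.9 to 48.2 TPM) than in the shControl bars (70.2 to 71.8 TPM), while the JUN family bars average 255 TPM in shZNF469 and 259 TPM in shControl.

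FOS and FOSB, the FOS family genes with strong activation domains, were at the edge of what the table holds. The lowest TPM above 0 was 0.333, 0.334 and 0.360 in the shZNF469 libraries and 0.456, 0.342 and 0.399 in the shControl libraries, and how smaller values were listed is not stated in the table. FOS (chromosome 14, 75278828 to 75282230) had 28, 16 and 0 counts in shZNF469 and 27, 40 and 19 in shControl. In CPM the groups overlapped (0.600, 0.323 and 0 in shZNF469, against 0.758, 0.849 and 0.508 in shControl), whereas in TPM they did not (0.461, 0.370 and 0 in shZNF469, against 0.860, 0.948 and 0.744 in shControl). The test did not separate them (log2 fold change -1.18, SE 1.14, edgeR adjusted p = 0.614), and the estimate moved between -2.09 without shZNF469 replicate 1 and -0.61 without shZNF469 replicate 3.

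FOSB had 51, 38 and 33 counts in shZNF469 and was listed at 0 in the 3 controls. In TPM it was at 0.666, 0.497 and 0.461 in shZNF469, beside a lowest TPM above 0 of 0.342 to 0.456 in the control libraries. It passed the filter on low counts only through the shZNF469 group, and a gene of that kind had to differ: of 42 genes tested that were listed at 0 in every control and above 0 in every shZNF469 library, 42 were called higher (edgeR adjusted p = 0.0108 for FOSB). The reverse pattern held for 18 tested genes, of which 18 were called. No fold change is given for FOSB. Without shZNF469 replicate 1 the adjusted p was 0.0722. FOSB (chromosome 19, 45467996 to 45475179) overlaps ERCC1 on the opposite strand, which was at 40.7 to 48.8 CPM in shZNF469 and at 46.7 to 53.8 CPM in shControl. Reads of the 2 genes cannot be told apart without a stated strand setting, so the FOSB values are uncertain.

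The JUN family genes, whose products are the partners every FOS protein needs, did not pass the test. JUN (chromosome 1, 58780791 to 58784047), the classical AP-1 activator, was at 141, 129 and 137 CPM in shZNF469 and at 123, 127 and 127 CPM in shControl. These groups did not overlap, yet the difference was 1.08-fold and did not pass (log2 fold change 0.12, SE 0.05, edgeR adjusted p = 0.244). JUNB (chromosome 19, 12791486 to 12793315), a weaker activator known to restrain JUN, was at 54.4, 51.8 and 57.0 CPM in shZNF469 and at 54.0, 56.8 and 57.1 CPM in shControl (log2 fold change -0.04, SE 0.06, adjusted p = 0.734). JUND (chromosome 19, 18279694 to 18281622), which is known to be expressed in resting cells, was at 74.0, 66.6 and 89.2 CPM in shZNF469 and at 78.8, 78.3 and 84.7 CPM in shControl (log2 fold change -0.07, SE 0.11, adjusted p = 0.746). Both JUNB and JUND overlapped between the groups. JUNB shares its locus with HOOK2 on the opposite strand, which was at 9.83 to 11.9 CPM in shZNF469 and at 9.35 to 10.8 CPM in shControl. Summed JUN family TPM was 255 ± 3.78 in shZNF469 and 259 ± 5.77 in shControl, and within it JUN held 37.6 ± 2.09% in shZNF469 and 34.7 ± 0.527% in shControl.

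EGR1, a zinc-finger factor that is among the earliest genes switched on by serum and is known to drive collagen and growth factor genes, had the lowest p of the 10 genes. The gene (ENSG00000120738, chromosome 5, 138465479 to 138469303), whose promoter with its 2 CArG boxes is printed above, had 392, 406 and 336 counts in shZNF469 and 567, 1018 and 749 in shControl. In CPM it was at 8.40, 8.19 and 8.27 in shZNF469 and at 15.9, 21.6 and 20.0 in shControl. The shZNF469 libraries were close to each other (8.29 ± 0.104 CPM), and every control lay above them (19.2 ± 2.94 CPM; SD, n = 3 each). EGR1 fell to 43.2% of the control level (log2 fold change -1.21, SE 0.12, edgeR adjusted p = 0.00174), ranking 138 by p among the 16353 genes tested. With any single library left out the log2 fold change was -1.32 to -1.11 and the adjusted p 0.00427 to 0.0175.

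IER3 and IER2 share a name but not a structure; IER3 is known as a regulator of survival and of ERK dephosphorylation, and IER2 as a nuclear protein induced by growth factors. IER3 (ENSG00000137331, chromosome 6, 30743199 to 30744547) was at 13.6, 12.7 and 15.5 CPM in shZNF469 and at 18.4, 19.2 and 21.8 CPM in shControl. It fell to 70.4% of the control level without overlap (log2 fold change -0.51, SE 0.10, edgeR adjusted p = 0.0248). The call was lost without shControl replicate 1, 2 or 3 (adjusted p = 0.0658, 0.0739 and 0.0856) and without shZNF469 replicate 1 or 2 (0.0992 and 0.0551). IER3 is overlapped by the antisense gene IER3-AS1, which is not analysed here. IER2 (chromosome 19, 13150411 to 13154911) was at 38.1, 34.8 and 35.4 CPM in shZNF469 and at 37.6, 41.9 and 40.5 CPM in shControl. Its groups overlapped and it did not pass (log2 fold change -0.15, SE 0.07, adjusted p = 0.22).

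**Figure D4:**
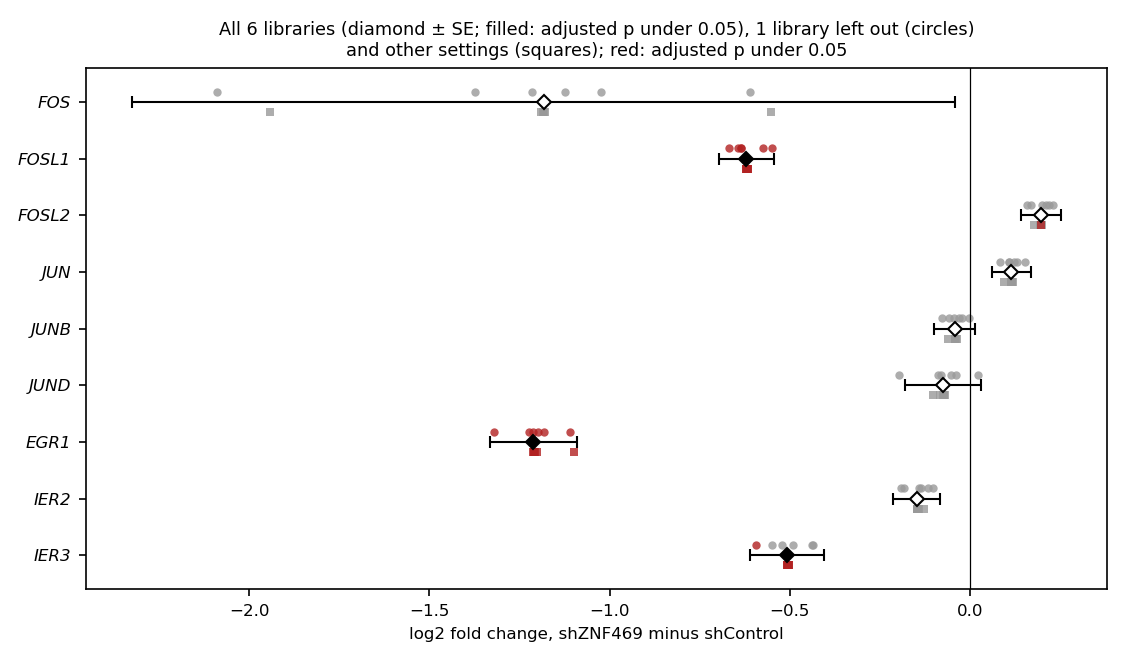
Log2 fold change of 9 genes with all 6 libraries (black diamonds ± SE, filled where the adjusted p is under 0.05), with 1 library left out (circles) and under other settings (squares), red where the adjusted p is under 0.05; FOSB is left out because it was listed at 0 in every control. EGR1 and FOSL1 are red throughout, the circles of IER3 are mostly grey, and FOS spreads from -2.09 to -0.55.

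Other immediate-early genes moved in both directions. Of 32 tested, 7 were higher and 5 lower, beside 4.56% higher and 5.34% lower of all genes tested. The median log2 fold change of the 32 was 0.10. CCN1, a secreted matricellular protein gene, was at 251 ± 10.7 CPM in shZNF469 and 352 ± 8.93 CPM in shControl (log2 fold change -0.49, edgeR adjusted p = 0.00214). RHOB, a small GTPase gene, fell as well, by 0.53 on the log2 scale. SGK1, a serum-induced kinase gene, was at 291 ± 5.16 CPM in shZNF469 and 225 ± 1.87 CPM in shControl (log2 fold change 0.37, adjusted p = 0.00325; limma on log2(TPM + 1) gave 0.34 and adjusted p = 0.118). ZFP36, whose product destabilises AU-rich transcripts including those of immediate-early genes, rose too (log2 fold change 0.48), a call lost without shZNF469 replicate 1 (log2 fold change 0.45, adjusted p = 0.0514). The relatives EGR2, EGR3 and EGR4, and ARC, are not analysed here. The 12 calls in this list became 3 or 7 when shZNF469 replicate 1 or 3 was left out and 4, 5 or 5 when shControl replicate 1, 2 or 3 was.

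Among 11 tested genes of other leucine zipper proteins that pair with AP-1 subunits or share their sites, 1 was higher and 0 lower. Their share called was near the 9.9% of all genes tested, and their median log2 fold change was 0.05. JDP2 alone was lower at an unadjusted edgeR p under 0.05, and it was the 1 lower gene with DESeq2. MAF, a large MAF family gene, was at 248 ± 13.2 CPM in shZNF469 and 206 ± 6.36 CPM in shControl (log2 fold change 0.27, edgeR adjusted p = 0.0288), a call lost when any of the 3 controls or shZNF469 replicate 1 was left out (adjusted p = 0.0838 to 0.118, with 0 of the 11 then called). JDP2, a repressor that pairs with JUN, was at 34.0 ± 3.97 CPM in shZNF469 and 45.8 ± 5.16 CPM in shControl (log2 fold change -0.43, adjusted p = 0.0512, and 0.00032 with DESeq2). In TPM its groups overlapped, with 32.6 ± 6.15 in shZNF469 and 34.4 ± 4.94 in shControl, and limma on log2(TPM + 1) gave a log2 fold change of -0.08 (adjusted p = 0.842). The stress-induced partner ATF3 was low, at 1.43 ± 0.461 CPM in shZNF469 and 1.98 ± 0.395 CPM in shControl (adjusted p = 0.46), and ATF7 was at 43.3 ± 4.48 CPM in shZNF469 and 39.9 ± 1.23 CPM in shControl (adjusted p = 0.448).

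In edgeR's test, regulators upstream of these genes were called about as often as genes in general. Of 36 tested genes of serum response factor, its cofactors and the MAP kinase pathways, 1 was higher and 2 lower (median log2 fold change -0.02). This share called was near the 9.9% of all genes tested and below the 13.5% of genes with a mean of 10 CPM or more. DESeq2 called 10 of the 36, beside 1604 higher and 1589 lower of the 16334 genes it tested. RPS6KA2, a kinase gene of the ERK-activated RSK family, was at 194 ± 6.06 CPM in shZNF469 and 138 ± 3.93 CPM in shControl (log2 fold change 0.49, edgeR adjusted p = 0.00214; limma on log2(TPM + 1) gave 0.46 and adjusted p = 0.0612). NRAS was at 49.2 ± 6.32 CPM in shZNF469 and 76.1 ± 5.84 CPM in shControl (log2 fold change -0.63, adjusted p = 0.011), which did not pass without shControl replicate 1 (0.0573) or shZNF469 replicate 1 (0.0635). The serum response factor cofactor gene MRTFA was lower (log2 fold change -0.27, adjusted p = 0.0326), a call lost when any library other than shZNF469 replicate 1 was left out (adjusted p = 0.0607 to 0.128). Its relative MRTFB had a log2 fold change of 0.31 (adjusted p = 0.0518, and 0.0189 without shZNF469 replicate 3). The 3 calls became 6 without shZNF469 replicate 2 and 1 without shControl replicate 1.

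Genes that ERK signalling is known to induce as its own brakes included DUSP6, which fell in every setting tried. DUSP6, a phosphatase gene specific for ERK, was at 2.93, 3.43 and 3.42 CPM in shZNF469 and at 9.12, 8.28 and 10.3 CPM in shControl. It was 2.83-fold lower without overlap (edgeR adjusted p = 0.00106), and its call held in each of the 12 alternative settings (adjusted p up to 0.0105). Of 20 tested members of this list, which also holds the EGR corepressor genes, 3 were lower and 1 higher. Over all genes tested 5.34% were lower and 4.56% higher. The median log2 fold change of the list was 0.03. PHLDA2 was lower (log2 fold change -0.78, adjusted p = 0.0126). Leaving out shControl replicate 1, 2 or 3 left its log2 fold change at -0.79, -0.76 or -0.78 but lost the call (adjusted p = 0.0553, 0.0544 or 0.0517). SPRY4, a Sprouty inhibitor gene, was lower (log2 fold change -0.46, adjusted p = 0.0373) and DUSP16, a phosphatase gene for JNK and p38, higher (log2 fold change 0.33, adjusted p = 0.0301). The call of SPRY4 was lost with any single library left out (adjusted p = 0.0595 to 0.128) and that of DUSP16 without each library but shZNF469 replicate 3 (0.0588 to 0.117). The 4 calls became 2 when shZNF469 replicate 1 or 2 was left out and 1 when any control was.

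Genes known as targets of AP-1 or EGR1 moved in both directions. Of 23 tested, 7 were lower and 3 higher (median log2 fold change -0.11), beside 5.34% lower and 4.56% higher of all genes tested. COL1A2, a type I collagen chain gene known to respond to EGR1, was at 10622 ± 405 CPM in shZNF469 and 19409 ± 547 CPM in shControl (log2 fold change -0.87, edgeR adjusted p = 7.09e-05). CCL2, a monocyte chemokine gene, was at 12.1, 12.9 and 14.9 CPM in shZNF469 and at 24.9, 29.1 and 33.0 CPM in shControl (log2 fold change -1.13, adjusted p = 0.00245). F3, the tissue factor gene, fell by 0.64 on the log2 scale (adjusted p = 0.00171), whereas CD44, a hyaluronan receptor gene, rose (log2 fold change 0.32, adjusted p = 0.00456; limma on log2(TPM + 1) gave 0.30 and adjusted p = 0.155). The 10 calls became 6 when shZNF469 replicate 1 or 3 was left out and 4, 5 or 6 when shControl replicate 1, 2 or 3 was.

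Other gene groups that can move with immediate-early genes were counted beside them. Of all genes tested, 5.34% were lower and 4.56% higher in edgeR's test, while DESeq2 called 1589 lower and 1604 higher of 16334. Cell cycle genes fell: 14 of 15 tested were lower and 0 higher, and their median log2 fold change was -1.17. MKI67, the proliferation marker gene, was at 14.8 ± 0.541 CPM in shZNF469 and 33.2 ± 0.689 CPM in shControl (edgeR adjusted p = 0.000159), and RRM2, CCNA2 and CDK1 fell by 1.48, 1.17 and 1.29 on the log2 scale. The estimates of all 15 were negative, so 0 were higher at any unadjusted edgeR p, and DESeq2 called 14. Of 10 heat-shock genes, known to rise under stress, 3 were lower and 0 higher (median log2 fold change -0.14); the estimates of all 10 were negative, and DESeq2 called 3. These were HSP90AA1, HSPD1 and HSPH1 (log2 fold change -0.23, -0.22 and -0.24, adjusted p = 0.0143, 0.0339 and 0.045), and HSPA8 did not pass (adjusted p = 0.155). Without shControl replicate 1, 2 or 3 or shZNF469 replicate 1 the heat-shock calls became 0, and without shZNF469 replicate 3 there was 1. The part of proliferation and of handling in the values of EGR1, FOSL1 and IER3 was not tested.

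**Figure D5:**
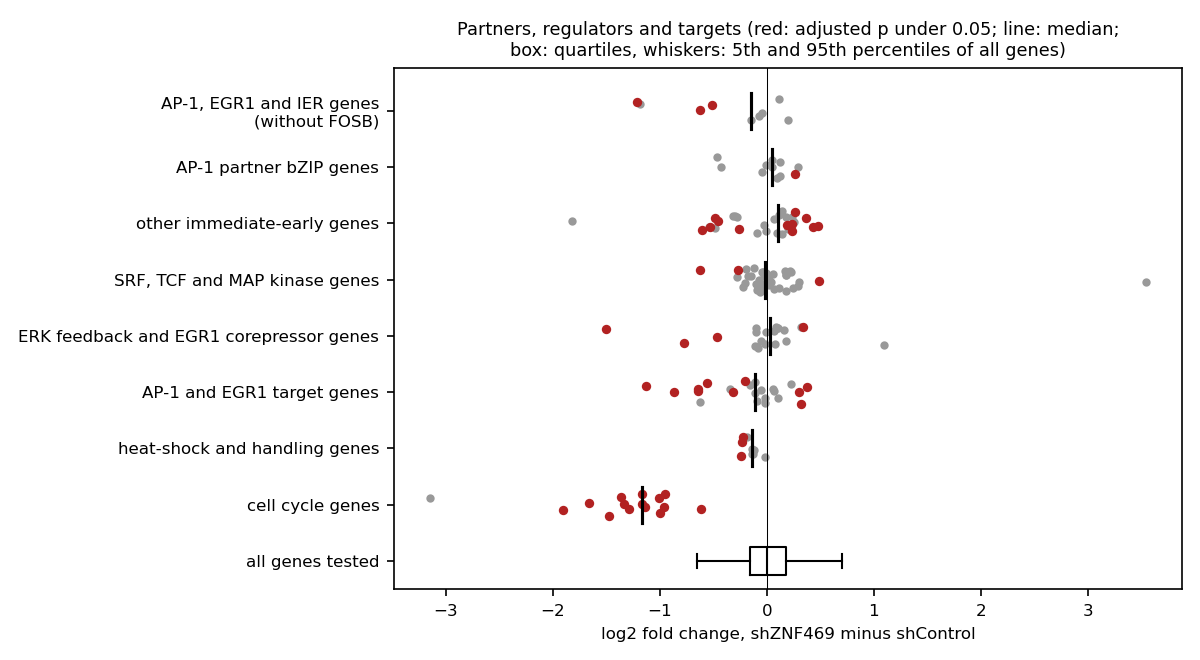
Log2 fold change of the 9 genes other than FOSB and of the tested members of 7 lists, 1 point per gene, red where the adjusted p is under 0.05, with the median as a black line; the box gives the quartiles and the whiskers the 5th and 95th percentiles of all 16353 genes tested. The cell cycle genes lie left of 0 with a median of -1.17, while the medians of the other lists lie between -0.14 and 0.10.

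The genes whose pattern over the 6 libraries was most like that of EGR1, by the Euclidean distance of centred log2 CPM among 9485 genes with a symbol and a mean of 10 CPM or more, were KIF2C (0.17), PLK1 (0.26) and ELN (0.27). KIF2C and PLK1 encode a kinesin and a kinase of mitosis, and ELN elastin. KIF2C was at 7.49 ± 0.339 CPM in shZNF469 and 16.2 ± 2.27 CPM in shControl (SD, n = 3 each). As for EGR1, shControl replicate 2 was the highest and replicate 1 the lowest of the controls. Such a shared order follows from choosing genes by likeness over these libraries. Nearest to JUN were MACO1 (0.03), BAG6 (0.03) and SFSWAP (0.04), none of which passed the test (edgeR adjusted p = 0.298, 0.185 and 0.261). Nearest to FOS were STX17 (1.91), MCTS2 (2.21) and TACC3 (2.57), at distances larger than those found for JUN and EGR1. FOS had 0 counts in shZNF469 replicate 3, and these genes were picked by a pattern that this 1 library weighs on. There STX17, MCTS2 and TACC3 were each at their lowest (7.75, 6.25 and 6.47 CPM). MCTS2 is a near-identical copy of MCTS1, so its counts are uncertain.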

How the data were processed

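RNA from 3 shZNF469 and 3 shControl libraries was, per the labels' protocols, purified on RNeasy columns and converted to libraries with NEBNext Ultra reagents. The submitters' processing notes name HISAT2, StringTie and GRCh38.p14; versions, annotation release, strand setting and filters are not given there. The authors deposited raw read counts for 21151 genes and, beside them, their own TPM (transcript abundance scaled by gene length and library total). Low genes such as FOS and FOSB have few counts, so their values are imprecise. Counts were tested here with edgeR 4.0.16 in R 4.3.3 (filterByExpr with a minimum count of 10, TMM scaling, quasi-likelihood F-test, Benjamini-Hochberg adjustment over 16353 genes, threshold 0.05); SE is the log2 fold change over the root of F. TPM were used for levels between genes. Alternatives were DESeq2 1.42.0 (with the local dispersion trend it chose), RLE and upper-quartile scaling, no filter, limma 3.58.1 on log2(TPM + 1), a replicate block, and leaving out each library. The count tests were tested on simulated data with known changes. Ratios of TPM were compared by exact permutation over libraries.

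The 10 genes, the 7 gene lists and the 5 marker lists were chosen with earlier results of these data known. The genes named are these 10, ZNF469, from each of the 7 lists up to 4 tested genes with the lowest p, and for FOS, JUN and EGR1 the 3 genes closest in pattern over the 6 libraries among genes with a mean of 10 CPM or more. Coordinates and promoters are RefSeq's on GRCh38.p14; overlapping genes were read from GENCODE on GRCh38.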

Additional observations from a re-analysis of the deposited data

How the results depend on the processing

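In the 12 alternative settings the calls of EGR1, FOSL1, DUSP6 and ZNF469 held, and the median over all genes moved by -0.0135 to 0.0077 on the log2 scale. DESeq2 called 1604 genes higher and 1589 lower of the 16334 it tested. Of the 10 genes it called 2 higher and 3 lower. It called 2 of 11 partner genes and 10 of 36 genes of the serum response factor and MAP kinase list. Upper-quartile scaling called 5 genes of that list, beside 773 higher and 847 lower over all genes. Limma on log2(TPM + 1) called 142 higher and 338 lower over all genes, 0 partner genes, 5 other immediate-early genes, 0 of the serum response factor and MAP kinase list, 2 ERK feedback genes, 3 targets and 0 heat-shock genes. It did not call MAF, SGK1, RPS6KA2, NRAS, MRTFA, DUSP16, SPRY4, CD44, HSP90AA1, HSPD1 or HSPH1 (adjusted p = 0.0612 to 0.374). The cause of these differences was not tested. The replicate block called 0 of the 10 genes higher (FOSB, adjusted p = 0.0753), 2 partner genes and 1 heat-shock gene; it gave 592 higher and 736 lower over all genes. The labels give no pairing of libraries. Deviations of same-numbered libraries from their group means correlated at -0.02, 0.08 and 0.03 across genes. Those of differently numbered libraries correlated at -0.10 to 0.06, and not every library correlated best with its own number. With 3 libraries a group the deviations within a group depend on each other, so these values cannot decide whether the numbers pair the libraries. With single libraries left out, the counts over all genes ran from 204 to 769 higher and from 333 to 854 lower, and those of the 10 genes from 0 to 1 higher and from 2 to 3 lower. Calls per list then ran from 0 to 1 (partners), 3 to 14 (other immediate-early genes), 1 to 6 (serum response factor and MAP kinase), 1 to 3 (ERK feedback), 4 to 9 (targets), 0 to 3 (heat shock) and 13 to 15 (cell cycle). JUND, never called, had an estimate of 0.02 without shZNF469 replicate 2. FOS and FOSB had 0 to 51 counts a library, which limits the precision of their values.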
